A study of Mus musculus with 60 samples.

Results

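The 10 genes Gsta1, Gsta2, Gsta3, Gsta4, Gstm1, Gstm2, Gstm3, Gstp1, Gstt1 and Gstt3 encode glutathione S-transferases of mouse. They were taken by symbol from the 54343 symbols that each of 4 expression tables lists, and all 10 were found in every table. The family was picked from these same tables, by expression values already known to differ between the groups. The fold changes and adjusted p-values below therefore describe where each member stands among all genes tested, and they are no independent evidence that the family differs from other genes.

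The tables hold 60 bulk RNA-seq libraries of liver and inguinal white adipose tissue (subcutaneous fat of the groin) from diet-induced obese mice, in 12 groups of 5. Each table covers 1 tissue of 1 mouse line in 3 groups. In the Glp1r line these are floxed mice (Glp1rfl/fl) given Vehicle, floxed mice given mGIPR-Ab/P1, and knockouts (Glp1rWnt1-/-) given Vehicle. The Gipr line has the same 3 groups, with Giprfl/fl as the floxed mice and GiprSyn-/- as the knockouts. GLP1R and GIPR are the receptors of the gut hormones GLP-1 and GIP. mGIPR-Ab/P1 is an antibody against GIPR that carries a GLP-1 peptide, called the conjugate here. Wnt1 is a gene of the developing neural tube and Syn refers to synapsin, a neuronal gene, so the knockout names point to loss of a receptor in neural cells. The labels give no Cre line, dose, treatment time, sex or age, and do not say whether both tissues came from the same animals. Floxed controls carry the loxP alleles in every group, and knockouts given the conjugate were not analysed here. Libraries are labelled biological replicates, and p-values measure the spread between these libraries.

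Glutathione S-transferases join the tripeptide glutathione to reactive, electrophilic compounds, which makes them more soluble and ready for export. The cytosolic enzymes work as dimers and fall into classes by sequence. Alpha class enzymes (Gsta genes) handle organic hydroperoxides and products of lipid peroxidation, and Gsta4 is known for its action on the lipid aldehyde 4-hydroxynonenal. The mu class (Gstm genes), the pi class (Gstp1) and the theta class (Gstt genes) act on other, partly overlapping substrates. The liver is the main site of this detoxification, and Gstp1 is known as an abundant protein of male mouse liver. Several alpha and mu class genes are textbook targets of Nrf2 (gene Nfe2l2), a transcription factor that binds antioxidant response elements when cells meet oxidants or electrophiles.

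The sequences before the start sites of 4 members are shown: Gsta1 and Gstm3 had the largest falls in liver, Gsta2 is a close relative of Gsta1, and Gstp1 alone rose there. Each run is the 250 bases upstream of the annotated start, from RefSeq on build GRCm38.p6. Capitals mark the longest stretch that Gsta1 and Gsta2 share (29 bases) and, in Gstp1, an AP-1 site (TGAGTCA), bound by the Fos and Jun family. No capitals appear in Gstm3, where none of 3 motifs searched was found.
Gsta1: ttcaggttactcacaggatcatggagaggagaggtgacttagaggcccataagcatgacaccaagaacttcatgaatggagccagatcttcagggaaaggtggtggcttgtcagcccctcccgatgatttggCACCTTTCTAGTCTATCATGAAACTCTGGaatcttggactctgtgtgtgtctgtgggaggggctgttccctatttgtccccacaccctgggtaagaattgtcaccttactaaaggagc
Gsta2: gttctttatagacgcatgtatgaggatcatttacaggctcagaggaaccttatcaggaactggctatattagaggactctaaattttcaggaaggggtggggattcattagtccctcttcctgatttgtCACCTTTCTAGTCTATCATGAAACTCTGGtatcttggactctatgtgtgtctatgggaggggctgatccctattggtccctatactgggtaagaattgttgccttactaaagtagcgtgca
Gstm3: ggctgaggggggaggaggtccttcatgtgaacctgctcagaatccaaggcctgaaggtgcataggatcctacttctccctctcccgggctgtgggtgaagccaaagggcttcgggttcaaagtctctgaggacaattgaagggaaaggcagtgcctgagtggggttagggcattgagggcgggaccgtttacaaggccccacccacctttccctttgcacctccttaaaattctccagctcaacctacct
Gstp1: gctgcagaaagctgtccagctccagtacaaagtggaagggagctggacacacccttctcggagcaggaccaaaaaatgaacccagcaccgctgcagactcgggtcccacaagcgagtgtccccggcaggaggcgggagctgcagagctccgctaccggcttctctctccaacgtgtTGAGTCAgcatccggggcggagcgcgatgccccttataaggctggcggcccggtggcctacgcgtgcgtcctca
These windows lie at chr9:78230419-78230668 on the plus strand for Gsta1, and on the minus strand at chr9:78347146-78347395 for Gsta2, chr3:107969175-107969424 for Gstm3 and chr19:4037913-4038162 for Gstp1.

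Among the 9 members with such a window (11 windows), the Gsta1 and Gsta2 stretch was the longest shared by any pair, and the next longest was 10 bases. The core of the antioxidant response element (TGACNNNGC, either strand) was found in Gsta3 alone, as TGACATTGC starting 121 bases before the start, and in 10.2% of all 32851 windows. The AP-1 site was found in Gstp1 alone, 74 bases before the start, and in 4.46% of windows. A STAT site (TTCNNNGAA, bound by factors of cytokine and growth hormone signalling) was found in Gsta1 alone, as TTCAGGGAA, and in 7.02% of windows. These are matches of letters in short windows, and distal elements were not searched. Gsta4 is named without a window.

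Related copies share sequence, which limits how reads can be told apart between them. Of all 50-base words in the annotated transcripts (GENCODE vM21), 90.5% of those of Gsta1 also occur in other genes, 75.7% in the predicted gene Gm3776. The share was 49.8% for Gsta2, 33.7% for Gstp1 (all with Gstp2), 28.8% for Gstm3, 18.9% for Gstm1, 12.5% for Gstt3 and 5.65% for Gstm2, and under 1% for Gsta3, Gsta4 and Gstt1. The authors' software divides such reads between copies by estimation, so the level of Gsta1 alone is uncertain. The sum of Gsta1 and Gm3776 had the same order of groups as Gsta1 alone. Its means were 33.5, 4.72 and 2.91 FPKM (fragments per length of transcript and depth of library) in vehicle, conjugate and knockout livers of the Gipr line, and 34.4, 3.31 and 15.4 FPKM in the Glp1r line. Gstp2 adds little to Gstp1: their summed means were 576, 1050 and 1676 FPKM in the Gipr line livers, beside 571, 1043 and 1665 FPKM for Gstp1 alone.

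Depth, estimated from the spacing of low FPKM values, was 31.7 to 57.3 M (mega) fragments in liver and 29.9 to 64.3 M in fat. Hepatocyte markers had a mean log2(FPKM + 1) of 11.59 to 12.24 in liver, and adipocyte markers 10.03 to 11.4 in fat. Neither receptor checks the deletions, which concern neural cells: Glp1r reached at most 0.356 FPKM in any library, and Gipr ranged from 2.16 to 7.46 FPKM in fat. Livers of the Gipr line held exocrine pancreas transcripts to very different degrees. The summed FPKM of 8 pancreatic enzyme genes ranged from 0.778 to 4318 in vehicle, from 0.328 to 8249 in conjugate and from 0.649 to 2810 in knockout libraries, while in the Glp1r line livers all 8 were under 1 FPKM. In all 60 libraries Xist was at most 0.0197 FPKM and the Y-linked Ddx3y at 7.44 to 26.9 FPKM. B cell markers had a mean log2(FPKM + 1) above 5 in 6 fat libraries. In bulk tissue, fewer cells of a type and less RNA per cell cannot be told apart.

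In the livers of vehicle-treated floxed mice, 3 members made up most of the family's transcripts. Gsta3, Gstm1 and Gstp1 held 83.6% ± 0.934 (SD, n = 5) of the members' summed FPKM in the Glp1r line and 82.7% ± 2.0 in the Gipr line. In the Gipr line the order by FPKM, which is per length, was Gsta3 (1300 ± 226), Gstm1 (864 ± 67.8), Gstp1 (571 ± 69.4), Gstt1 (268 ± 22.1), Gstm2 (93.4 ± 10.2), Gstm3 (57.8 ± 41.0), Gsta4 (55.8 ± 6.31), Gstt3 (41.5 ± 5.47), Gsta2 (35.6 ± 5.4) and Gsta1 (15.7 ± 10.7). Gstm3 and Gsta4 did not differ beyond their spread, nor did Gstt3 and Gsta2. In the Glp1r line Gstm1 (1191 ± 341) and Gsta3 (1138 ± 84.6) did not differ beyond their spread, and both lines had Gstp1, Gstt1, Gstm2 and Gstm3 in that order below them. Gsta3 and Gstm1 ranked 57 and 82 from the highest of 54343 symbols in the Gipr line livers, so both are among the most abundant messages of the organ.

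Inguinal fat had a different set. Gsta1 reached at most 0.267 FPKM, Gsta2 at most 0.584 and Gstm3 at most 0.0686 in any of the 30 fat libraries, and Gstm3 was listed at 0 in all 15 of the Gipr line, so these 3 genes were not tested in fat. Gstm1 (132 ± 14.5 FPKM), Gstm2 (117 ± 11) and Gstp1 (105 ± 12.3) were close together in vehicle fat of the Gipr line. Below them came Gstt1 (52.7 ± 10), Gsta3 (22.9 ± 2.72), Gstt3 (9.21 ± 1.5) and Gsta4 (8.0 ± 2.01), and the last pair did not differ beyond their spread. The neighbours Gstp1 (98.6 ± 11.6), Gstm1 (96.7 ± 20.9) and Gstm2 (94.8 ± 19.1) could not be ordered in the Glp1r line.

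Conjugate treatment in the Gipr line livers was read against the vehicle-treated floxed livers of the same line, with limma on log2(FPKM + 1) over all 11201 genes tested and a call at an adjusted p under 0.05. Of the 10 members, 4 fell (Gsta1, Gsta2, Gstm2, Gstm3) and 1 rose (Gstp1). Of all genes tested, 4.34% were called, 3.17% lower and 1.17% higher. The untreated knockout livers, read against the same vehicle livers, had 6 members lower (the same 4, Gstm1 and Gsta4) and Gstp1 higher, and 10.4% of all genes called, 8.92% lower and 1.44% higher. The median log2 fold change of the members was -0.6 with the conjugate and -0.85 in the knockouts, beside -0.0296 and -0.108 over all genes tested. Both comparisons use the same 5 vehicle livers, so their values are set side by side and their likeness is not a result.

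**Figure D1:**
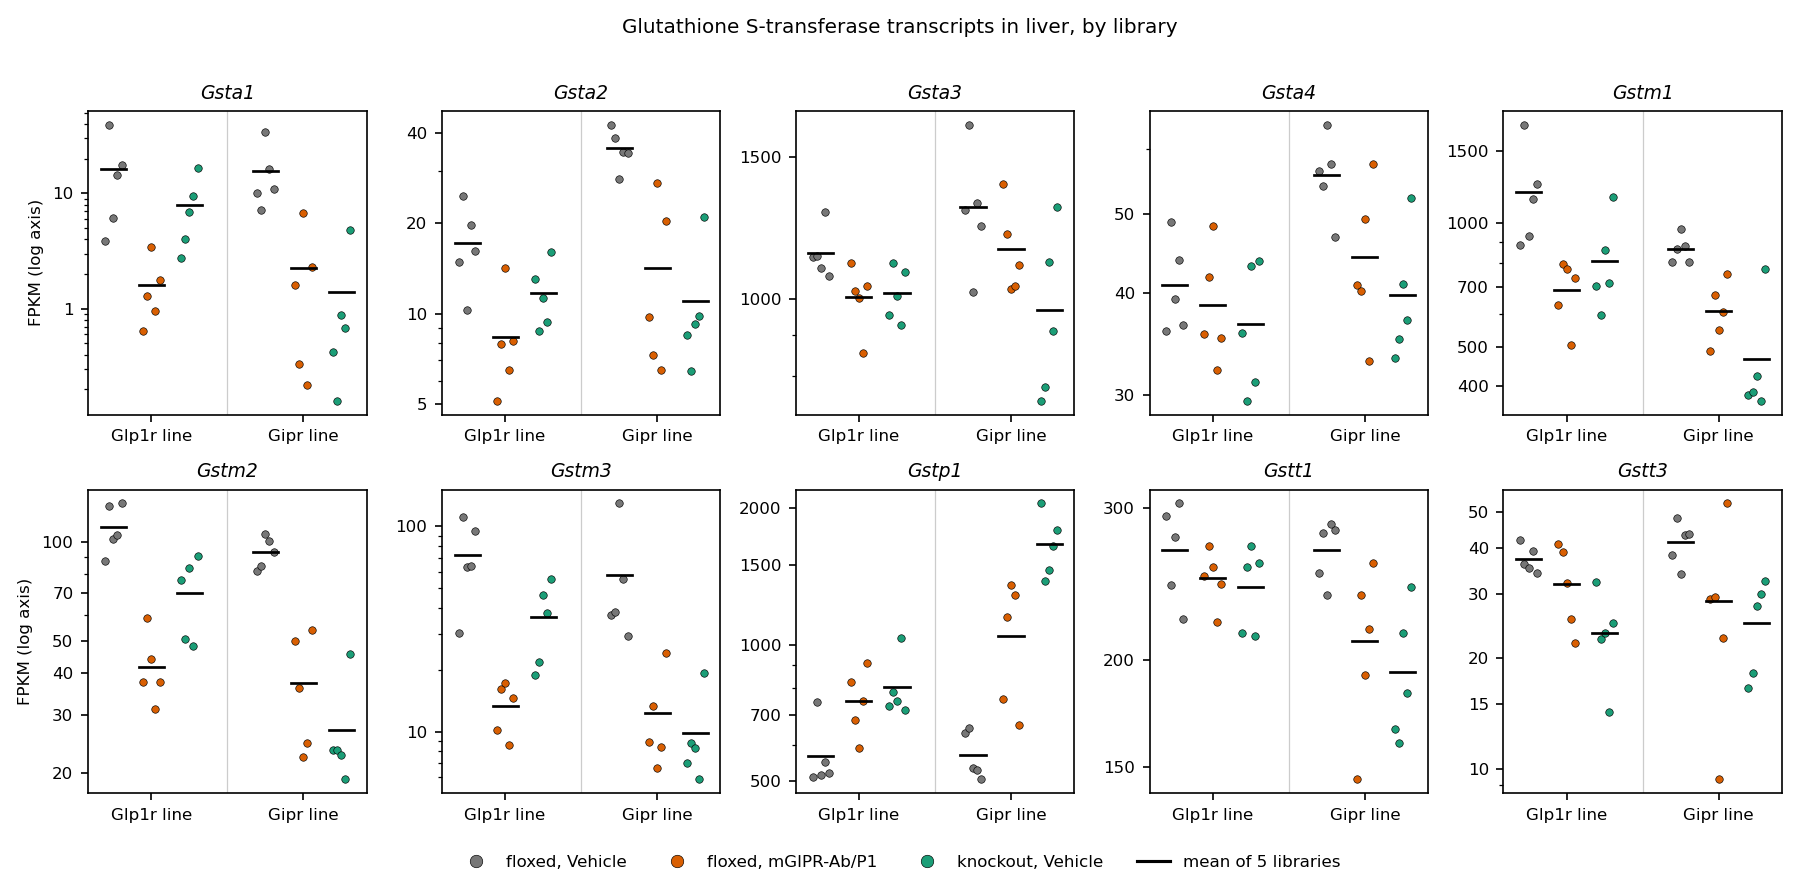
FPKM of the 10 members in each of the 30 liver libraries (log axis, 1 panel per gene), with the Glp1r line on the left and the Gipr line on the right of each panel. Grey, orange and green points are floxed Vehicle, floxed mGIPR-Ab/P1 and knockout Vehicle livers, and bars are means of 5. In the Gipr line the knockout livers hold 1379 to 2048 FPKM of Gstp1 and the vehicle livers 504 to 655, while Gsta1, Gsta2, Gstm2 and Gstm3 lie lower in both orange and green than in grey.

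Among the alpha class genes, Gsta1 had the widest relative range of the family. It stood at 10.1, 7.16, 34.0, 16.4 and 11 FPKM in the 5 vehicle livers, at 1.62, 0.334, 6.82, 0.219 and 2.29 FPKM in the conjugate livers, and at 0.418, 0.159, 0.884, 0.687 and 4.84 FPKM in the knockout livers. Every conjugate and knockout liver was below every vehicle liver, and the fifth knockout liver stood above the other 4 of its group. Gsta1 fell by 2.51 ± 0.54 on the log2(FPKM + 1) scale (SE, n = 5 per group, limma adjusted p = 0.0195) with the conjugate and by 2.88 ± 0.54 in the knockouts (adjusted p = 0.00334). On this scale the change of a gene near 1 FPKM is understated.

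Gsta2, the close relative of Gsta1, was at 42.6, 38.5, 28.1, 34.5 and 34.4 FPKM in vehicle livers, at 9.8, 7.3, 27.2, 6.52 and 20.4 FPKM with the conjugate, and at 8.53, 6.45, 9.26, 9.88 and 21.1 FPKM in knockouts. Conjugate and knockout livers lay wholly below vehicle and overlapped each other. The third conjugate liver came within 1 FPKM of the lowest vehicle liver. The log2 differences were -1.46 ± 0.35 (adjusted p = 0.033) and -1.70 ± 0.35 (adjusted p = 0.00636). Gsta3, the most abundant alpha gene, ranged from 1018 to 1645 FPKM in vehicle, from 1027 to 1390 in conjugate and from 746 to 1300 in knockout livers. These ranges overlapped, and neither difference passed the test (-0.17, adjusted p = 0.64, and -0.44, adjusted p = 0.103). Gsta4 was at 56.4, 54.0, 64.2, 57.5 and 46.8 FPKM in vehicle and at 33.3, 35.1, 41.0, 37.0 and 52.3 FPKM in knockout livers. Only the fifth knockout liver reached into the vehicle range, and the difference of -0.49 ± 0.15 was close to the threshold (adjusted p = 0.0459). It kept its call in 13 of 26 alternative analyses, the lowest share of the 7 calls.

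Of the mu class genes, Gstm2 and Gstm3 fell in both comparisons and Gstm1 in the knockouts. Gstm2 stood at 81.8, 84.9, 106, 101 and 93.3 FPKM in vehicle livers, at 50.2, 36.2, 22.3, 24.7 and 54.1 FPKM with the conjugate and at 23.4, 23.4, 22.6, 19.1 and 45.9 FPKM in knockouts. No conjugate or knockout liver reached the vehicle range. Its log2 difference was -1.37 ± 0.25 (adjusted p = 0.00971) with the conjugate and -1.82 ± 0.25 (adjusted p = 0.000386) in the knockouts.

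Gstm3 was at 36.8, 38.4, 129, 55.2 and 29.3 FPKM in vehicle livers, at 8.92, 13.3, 6.67, 8.44 and 24.2 FPKM with the conjugate and at 7.06, 8.81, 8.27, 5.85 and 19.3 FPKM in knockouts. The third vehicle liver stood far above the rest, and the fifth liver was the highest in both other groups. The mean went from 57.8 ± 41.0 to 12.3 ± 7.09 and 9.86 ± 5.4 FPKM, and the log2 difference was -2.06 ± 0.41 (adjusted p = 0.0136) and -2.33 ± 0.41 (adjusted p = 0.00197). Gstm2 and Gstm3 kept both calls in all 26 alternative analyses.

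Gstm1, the most abundant mu gene, was at 804, 864, 969, 879 and 806 FPKM in vehicle livers, at 488, 667, 548, 607 and 753 FPKM with the conjugate and at 382, 387, 425, 369 and 772 FPKM in knockouts. Both groups lay wholly below vehicle, with the fifth knockout liver well above the other 4. The knockout difference passed the test (-0.95 ± 0.18, adjusted p = 0.00367), and the conjugate difference did not (-0.51 ± 0.18, adjusted p = 0.122, 95% interval -0.89 to -0.13).

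Gstp1, the only pi class member, moved the other way. It stood at 637, 655, 533, 528 and 504 FPKM in vehicle livers, at 760, 1151, 1351, 1289 and 663 FPKM with the conjugate and at 2048, 1379, 1458, 1650 and 1790 FPKM in knockouts. The 3 groups did not overlap in any pair. Gstp1 rose by 0.82 ± 0.19 (log2, adjusted p = 0.0294) with the conjugate and by 1.54 ± 0.19 (adjusted p = 0.000189, 2.9-fold) in the knockouts. Set directly against each other, conjugate and knockout livers differed in Gstp1 by -0.72 ± 0.19 (adjusted p = 0.079). That passed the threshold only with the pancreas markers as a term (-0.89, adjusted p = 0.0229). No member was called in this direct comparison, where 1.31% of all genes were, 1.08% higher and 0.232% lower with the conjugate, and 1717 of 11201 genes had an unadjusted p under 0.05. That split of 121 and 26 genes was 52 and 36 by median-of-ratios scaling and 436 and 27 by rescaling to the same sum.

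The theta genes did not pass the test in the Gipr line livers. Gstt1, which acts on small halogenated compounds, was at 268 ± 22.1, 210 ± 44.3 and 193 ± 35.0 FPKM in vehicle, conjugate and knockout livers, and the knockout difference just missed the threshold (-0.49 ± 0.15, adjusted p = 0.0533). Gstt3 had means of 41.5 ± 5.47, 28.7 ± 15.8 and 25.0 ± 7.13 FPKM, with all 5 knockout livers below the lowest vehicle liver (-0.75, adjusted p = 0.174).

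Other measurements moved with these groups. Pancreatic transcripts (summed FPKM above 50) were in 4 vehicle, 4 conjugate and 1 knockout liver. With the pancreas marker score as a term, the same number of members was called, 5 with the conjugate and 7 in the knockouts, of 652 and 1393 genes in place of 486 and 1160. The fifth knockout liver, nearest to vehicle in Gsta1, Gsta2, Gsta4, Gstm1, Gstm2 and Gstm3, also had the highest Kupffer cell markers (summed FPKM of 5 genes 615, beside 105 to 122 in the other 4). Red cell markers were at 993 to 1678 summed FPKM in vehicle, 406 to 1170 in conjugate and 634 to 859 in knockout livers. Adipocyte markers, at a mean log2(FPKM + 1) of 2.11 to 2.35 in vehicle livers, were at 0.95 to 2.13 in conjugate and 1.05 to 1.42 in knockout livers. In each of these groups 2 of the 5 adipocyte markers were under 1 FPKM in all libraries. The part of red cells, Kupffer cells and adipocyte markers in these results was not tested. Of the conjugate calls, those of Gstm2 and Gstm3 held in all 26 alternative analyses, and those of Gsta1, Gstp1 and Gsta2 in 20, 17 and 16. Without the livers of the higher library numbers Gsta1 (-2.35, adjusted p = 0.0705) and Gsta2 (-1.42, adjusted p = 0.0693) missed the threshold. Median-of-ratios scaling of the libraries moved the median of all genes in the knockout comparison from -0.108 to 0.00567. With it 270 genes were higher and 467 lower, in place of 161 and 999, and Gsta4 lost its call (-0.35), while 6 members kept theirs.

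In the Glp1r line livers 5 members fell with the conjugate: Gsta1, Gsta2, Gstm1, Gstm2 and Gstm3. None rose. Of the 10858 genes tested, 10.4% were called, 4.69% lower and 5.68% higher, a split that turned to 336 higher and 469 lower when libraries were rescaled to the same sum. The members' median log2 fold change was -0.51, beside 0.0126 over all genes. Conjugate libraries of this table were also shallower, with 31.7 to 35.5 M fragments against 47.6 to 54.7 M in vehicle. Red cell markers summed to 1016 to 1522 FPKM in vehicle and 475 to 889 FPKM in conjugate livers. Adipocyte markers had a mean log2(FPKM + 1) of 1.75 to 2.02 in vehicle and 0.97 to 1.68 in conjugate livers. In both groups 3 of the 5 adipocyte markers were under 1 FPKM in all libraries. The part of the red cell or adipocyte list was not tested. Depth and treatment cannot be told apart here: with estimated depth as a term no gene of the table was called, and the 5 members had adjusted p-values from 0.295 to 0.463. Their log2 differences with that term were -5.39 for Gsta1 (-2.43 without it), -2.04 for Gsta2 (-0.97), -1.38 for Gstm1 (-0.76), -1.23 for Gstm2 (-1.40) and -3.82 for Gstm3 (-2.28).

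Gsta1 stood at 3.88, 39.4, 6.07, 14.6 and 17.8 FPKM in vehicle livers of the Glp1r line, at 0.645, 1.3, 3.44, 0.964 and 1.76 FPKM with the conjugate and at 2.76, 4.0, 6.95, 9.51 and 16.8 FPKM in knockouts. The second vehicle liver was by far the highest, the conjugate livers all lay below the vehicle range, and the knockouts overlapped with it. The conjugate difference was -2.43 ± 0.52 (adjusted p = 0.0124) and the knockout difference -0.77 (adjusted p = 0.672, 95% interval -1.88 to 0.33). Gsta2 was at 14.9, 24.6, 10.3, 19.8 and 16.2 FPKM in vehicle and at 5.14, 7.92, 14.2, 6.51 and 8.13 FPKM in conjugate livers. The third liver of each group broke the separation, and the difference was -0.97 ± 0.24 (adjusted p = 0.0218). Gsta3 (-0.18, adjusted p = 0.139) and Gsta4 (-0.09, adjusted p = 0.71) did not pass the test.

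Gstm2 was at 87.5, 129, 102, 105 and 131 FPKM in vehicle livers of the Glp1r line, at 37.7, 58.9, 44.3, 31.2 and 37.7 FPKM with the conjugate and at 76.8, 50.8, 83.6, 48.4 and 90.6 FPKM in knockouts. Conjugate livers lay wholly below vehicle (-1.40 ± 0.19, adjusted p = 0.00251), and the knockouts overlapped both other groups (-0.68, adjusted p = 0.239). Gstm3 stood at 30.3, 111, 63.6, 63.9 and 94.9 FPKM in vehicle, at 10.2, 16.2, 17.3, 8.59 and 14.5 FPKM with the conjugate and at 18.8, 21.7, 46.3, 37.9 and 55.3 FPKM in knockouts. Again the conjugate livers were the lowest group, below every vehicle and every knockout liver. The log2 difference from vehicle was -2.28 ± 0.34 (adjusted p = 0.00317).

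Gstm1 was at 886, 1740, 933, 1147 and 1247 FPKM in vehicle and at 632, 796, 776, 505 and 736 FPKM in conjugate livers of this line. The ranges did not meet, and the difference was -0.76 ± 0.20 (adjusted p = 0.0269). Gstp1 was at 511, 747, 515, 550 and 521 FPKM in vehicle, at 827, 681, 592, 751 and 910 FPKM in conjugate and at 733, 784, 752, 1035 and 718 FPKM in knockout livers. One vehicle liver (the second) reached into both other groups, and neither difference passed the test (0.40 ± 0.13, adjusted p = 0.0687, and 0.50 ± 0.13, adjusted p = 0.205). Gstt1 and Gstt3 were not called with the conjugate (-0.10, adjusted p = 0.5, and -0.26, adjusted p = 0.399).

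No gene of the table was called in the Glp1r line knockouts (0% of 10858 by limma), although 1048 genes had an unadjusted p under 0.05 and the smallest adjusted p was 0.0812. Of the 10 members, 9 had a log2 fold change below 0 there, with a median of -0.52 beside -0.0376 over all genes. The Gstt3 groups did not overlap, at 42.0, 36.1, 35.3, 39.3 and 34.2 FPKM in vehicle and 32.2, 22.6, 23.4, 14.3 and 25.0 FPKM in knockout livers (-0.69 ± 0.19, adjusted p = 0.207). Set directly against the knockouts, the conjugate livers had lower Gstm3 (-1.29 ± 0.34, adjusted p = 0.0428) and lower Gstm2 (-0.71 ± 0.19, adjusted p = 0.0452). Those are 2 of 10 members, where 5.04% of all genes were called, 0.903% lower and 4.14% higher (449 higher and 98 lower, against 174 and 204 by median-of-ratios scaling), and they kept the call in 10 and 7 of 23 alternative analyses.

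**Figure D2:**
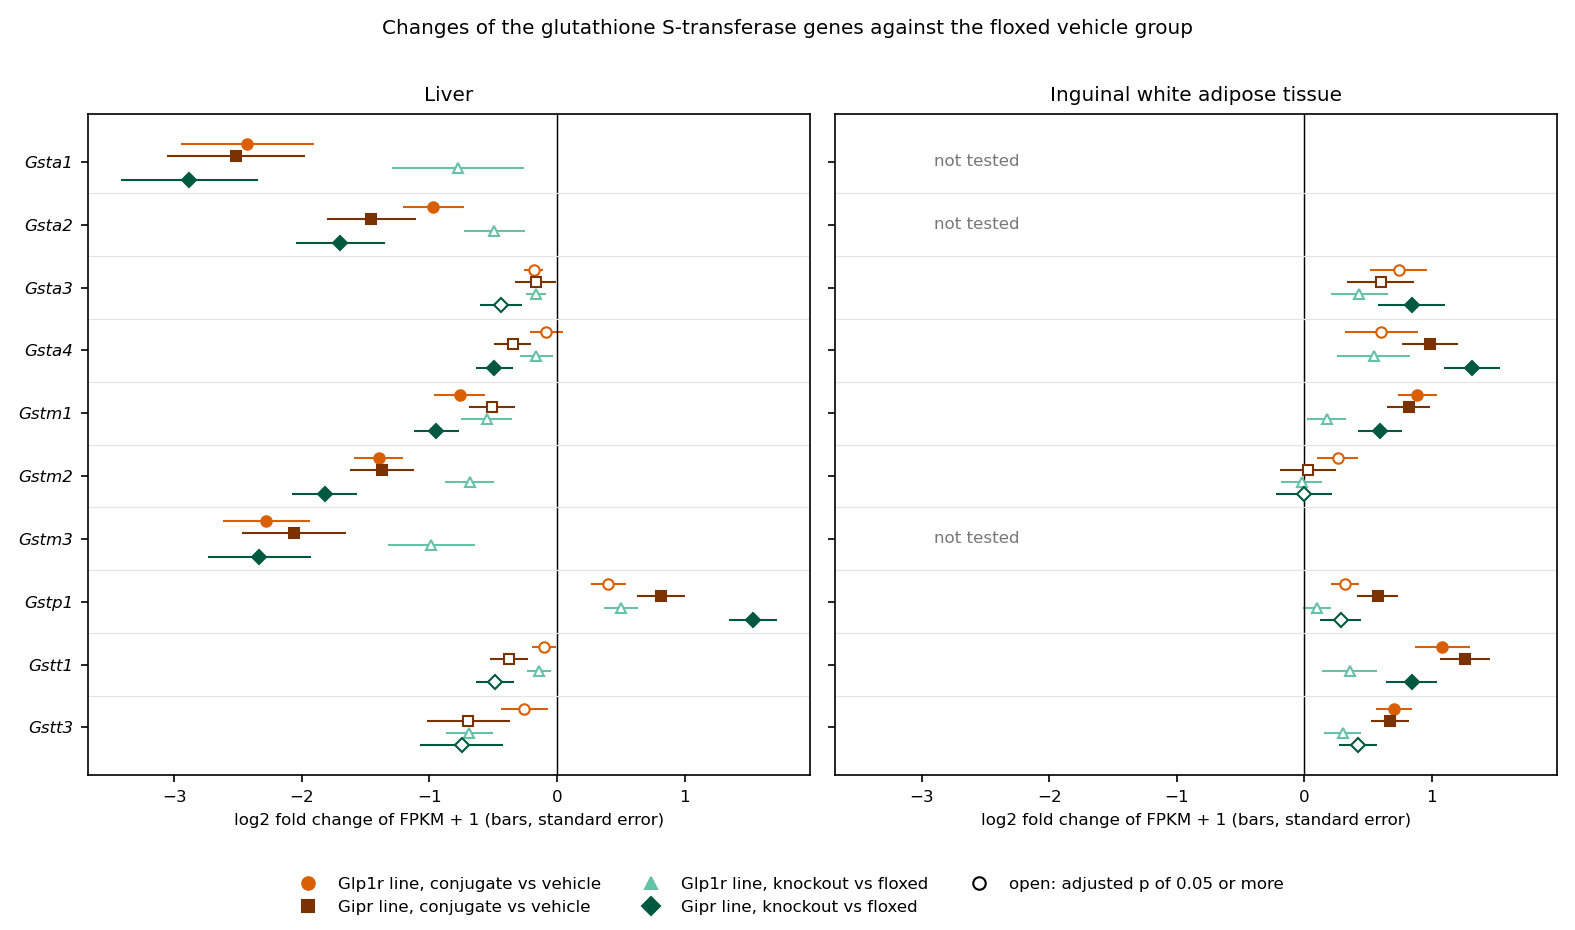
Log2 fold change of FPKM + 1 against floxed Vehicle, with its SE, for each member in liver (left) and inguinal fat (right), 4 comparisons per gene. Filled symbols passed an adjusted p of 0.05 and open symbols did not, and Gsta1, Gsta2 and Gstm3 were not tested in fat. Liver values of the alpha and mu genes reach -2.88 (Gsta1, Gipr line knockouts) and Gstp1 lies above 0, while called members in fat lie between 0.58 and 1.31.

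The effect of the conjugate was also compared between lines, over the 30 liver libraries. No gene was called (0% of 11419 by limma, with 657 at an unadjusted p under 0.05). The difference (Gipr line minus Glp1r line) was 0.42 for Gstp1 (95% interval -0.08 to 0.91), 0.22 for Gstm3 (-0.93 to 1.36), 0.02 for Gstm2 (-0.65 to 0.70) and -0.09 for Gsta1 (-1.70 to 1.53). The intervals are wide, so equal effects in both lines are not shown.

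Class makeup and summed level of the family were read per library, with no test. Summed FPKM of the 10 members was 3303 ± 248, 3156 ± 193 and 3408 ± 544 in vehicle, conjugate and knockout livers of the Gipr line, and 3462 ± 493, 2830 ± 238 and 3057 ± 262 in the Glp1r line. The pi share, which is Gstp1 alone, was 17.3% ± 1.46 in vehicle, 32.7% ± 8.48 in conjugate and 49.2% ± 7.02 in knockout livers of the Gipr line. The mu share was 30.9% ± 4.44, 21% ± 3.98 and 14.5% ± 3.07 in the same groups. The ratio of Gstp1 to Gstm1 ranged from 0.55 to 0.793 in vehicle, from 0.881 to 2.47 in conjugate and from 2.32 to 5.37 in knockout livers of the Gipr line. In the Glp1r line the pi share was 16.4% ± 0.971, 26.6% ± 4.2 and 26.5% ± 4.89. The lowest pi share in a conjugate or knockout liver of that line (20.7%) was above the highest in a vehicle liver (17.6%). Shares and ratios within a library do not depend on how libraries are scaled, and they show unequal change between classes, not which class changed.

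**Figure D3:**
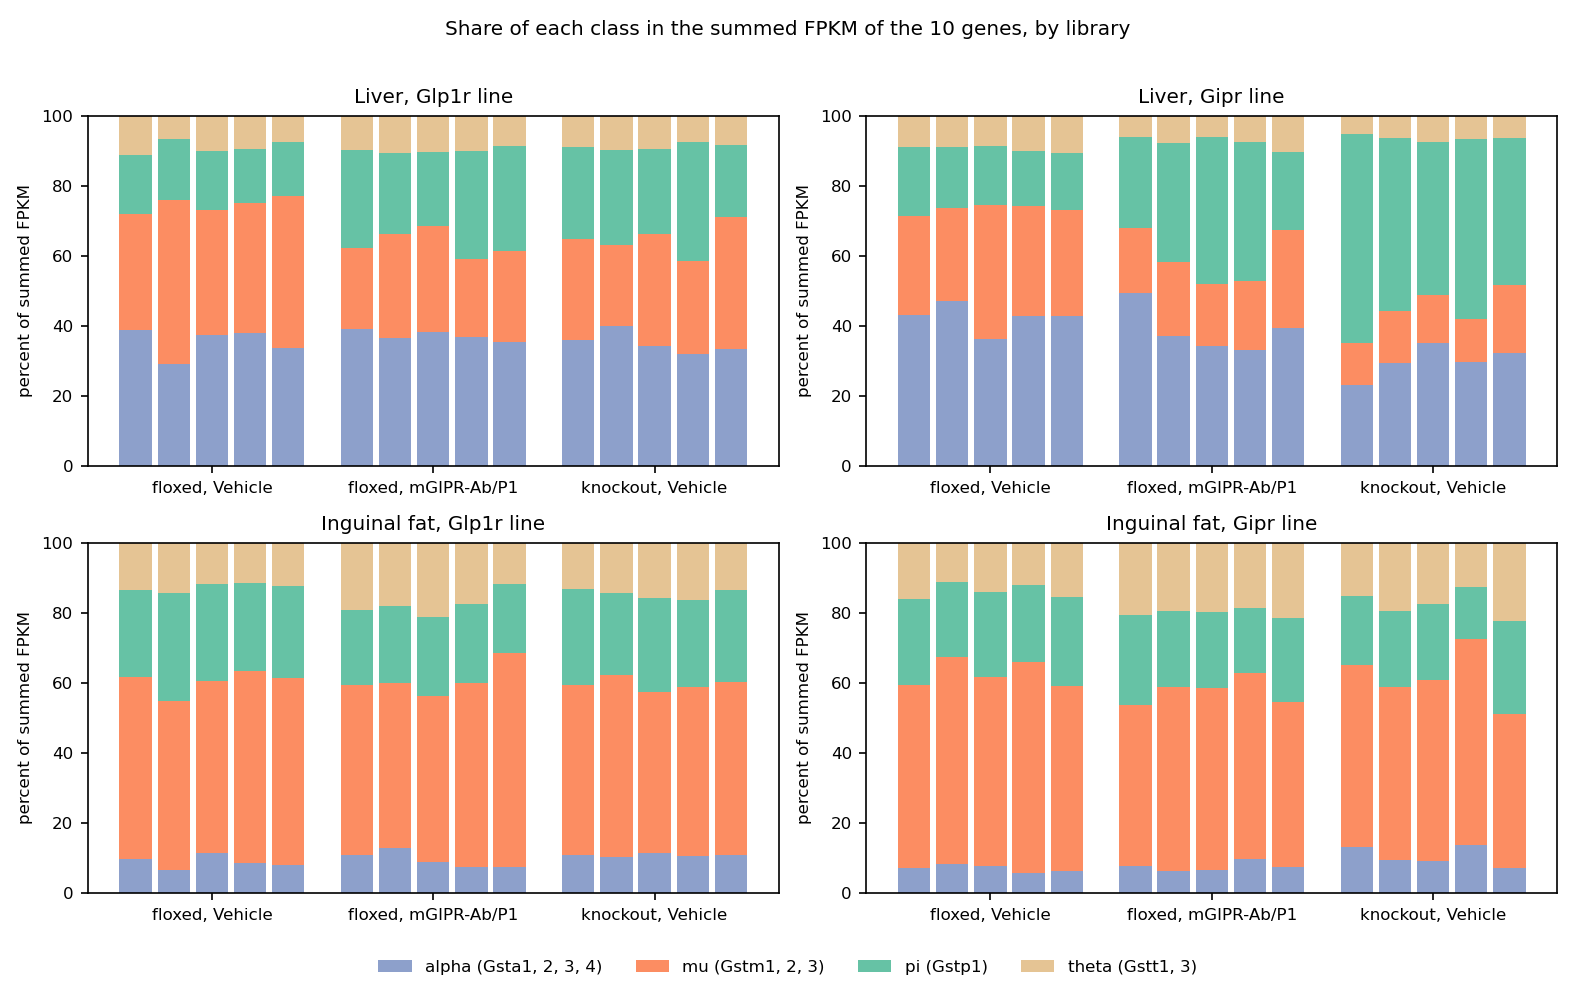
Share (%) of the alpha, mu, pi and theta class genes in the summed FPKM of the 10 members, 1 stacked bar per library, for liver and inguinal fat of each line. In Gipr line livers the pi share runs from 15.9% to 19.6% in vehicle and from 41.8% to 59.7% in knockouts, and the shares in fat differ less between groups.

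Inguinal fat of the Gipr line had 5 of 7 tested members higher with the conjugate: Gsta4, Gstm1, Gstp1, Gstt1 and Gstt3. None was lower. Of 13604 genes tested, 7.02% were called, 4.26% higher and 2.76% lower. In the knockouts 4 of 7 were higher (Gsta3, Gsta4, Gstm1, Gstt1), where 12.3% of all genes were called, 6.61% higher and 5.67% lower. The members' median log2 fold changes were 0.67 and 0.59, beside 0.11 and 0.0867 over all genes. The vehicle libraries are again shared. With median-of-ratios scaling all calls split 274 higher and 491 lower with the conjugate, and 588 and 1014 in the knockouts. Gstp1 (0.49, adjusted p = 0.114) and Gstt3 (0.59, adjusted p = 0.0504) then missed the threshold with the conjugate, as did Gsta3 (0.76, adjusted p = 0.0899) and Gstm1 (0.51, adjusted p = 0.0989) in the knockouts.

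Gstt1 had the largest difference with the conjugate. It stood at 60.9, 38.1, 59.3, 46.3 and 58.9 FPKM in vehicle fat, at 100, 116, 133, 133 and 152 FPKM with the conjugate and at 63.7, 123, 127, 72.0 and 101 FPKM in knockouts. Every library of both groups lay above the vehicle range, the first knockout library only just. The log2 difference was 1.26 ± 0.20 (adjusted p = 0.00267) with the conjugate and 0.84 ± 0.20 (adjusted p = 0.0158) in the knockouts. Both calls held in all 26 alternative analyses. Gstt3 was at 8.84, 6.87, 10.8, 9.51 and 10 FPKM in vehicle and at 14.7, 12.2, 13.5, 20 and 16.2 FPKM with the conjugate, without overlap (0.67 ± 0.15, adjusted p = 0.0181). In the knockouts it reached 9.43 to 15.7 FPKM and did not pass (0.42, adjusted p = 0.0787).

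Gsta4, the 4-hydroxynonenal enzyme, led in the knockouts. Its values were 8.22, 7.69, 11.3, 6.1 and 6.72 FPKM in vehicle fat, 16.9, 10.4, 12.1, 23.8 and 23.9 FPKM with the conjugate and 20.3, 25.2, 18.8, 25.6 and 16.4 FPKM in knockouts. The knockouts were wholly above vehicle, and 1 conjugate library (the second) fell inside the vehicle range. Gsta4 rose by 0.99 ± 0.22 (adjusted p = 0.0183) and by 1.31 ± 0.22 (adjusted p = 0.00368). Gsta3 was at 22.4, 25.3, 26.1, 20.4 and 20.2 FPKM in vehicle and at 42.4, 40.6, 55.5, 65.5 and 19.6 FPKM in knockouts. The first 4 knockout libraries were high and the fifth was the lowest of both groups, and the difference was at the threshold (0.84 ± 0.26, adjusted p = 0.0496, kept in 8 of 26 alternative analyses). The conjugate difference of Gsta3 was 0.60 (adjusted p = 0.18).

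Gstm1 was at 119, 117, 148, 145 and 130 FPKM in vehicle fat of the Gipr line, at 178, 212, 248, 278 and 257 FPKM with the conjugate and at 148, 227, 272, 222 and 151 FPKM in knockouts. Conjugate libraries were clearly apart from vehicle, and the lowest knockout library met the highest vehicle library. Gstm1 rose by 0.82 ± 0.17 (adjusted p = 0.014) and by 0.59 ± 0.17 (adjusted p = 0.0371). Gstm2, its neighbour in the mu class, ranged from 104 to 132 FPKM in vehicle, from 78.6 to 154 in conjugate and from 69.3 to 172 in knockout fat, with log2 differences of 0.03 (adjusted p = 0.939, 95% interval -0.44 to 0.50) and -0.01 (adjusted p = 0.988, -0.47 to 0.46). Gstp1 was at 107, 86.5, 119, 100 and 112 FPKM in vehicle and at 144, 142, 161, 151 and 186 FPKM in conjugate fat, without overlap (0.58 ± 0.16, adjusted p = 0.044). This call was kept in 12 of 26 alternative analyses. It was lost without the libraries of the higher library numbers (0.51, limma adjusted p = 0.106). Those were the fifth conjugate and the fifth knockout library, the deepest of this table (56.6 and 64.3 M fragments), and no vehicle library. The knockouts (93.5 to 177 FPKM) straddled the vehicle range (0.28, adjusted p = 0.234).

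Markers of other cells moved in the same fat groups. Schwann cell markers (5 genes) summed to 58.9 to 96.0 FPKM in vehicle, 96.0 to 213 in conjugate and 112 to 214 in knockout libraries. Lipid-associated macrophage markers had a mean log2(FPKM + 1) of 4.49 to 5.44 in vehicle and 2.96 to 3.86 in knockout libraries, and endothelial markers 5.75 to 5.98 and 5.11 to 5.67. The part of these cells in the results was not tested. B cell markers had a mean log2(FPKM + 1) of 0.99 to 4.7 in vehicle, 1.9 to 6.18 in conjugate and 3.61 to 6.39 in knockout libraries. With their score as a term 5 members were called with the conjugate, of 838 genes in place of 955. In the knockouts 4 members were called, of 235 genes in place of 1670, with Gsta3 lost (1.26, adjusted p = 0.0614) and Gstt3 gained (0.74, adjusted p = 0.0348). Without the 3 libraries of this table rich in B cell transcripts, 6 members and 928 genes were called with the conjugate and 4 members and 755 genes in the knockouts.

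**Figure D4:**
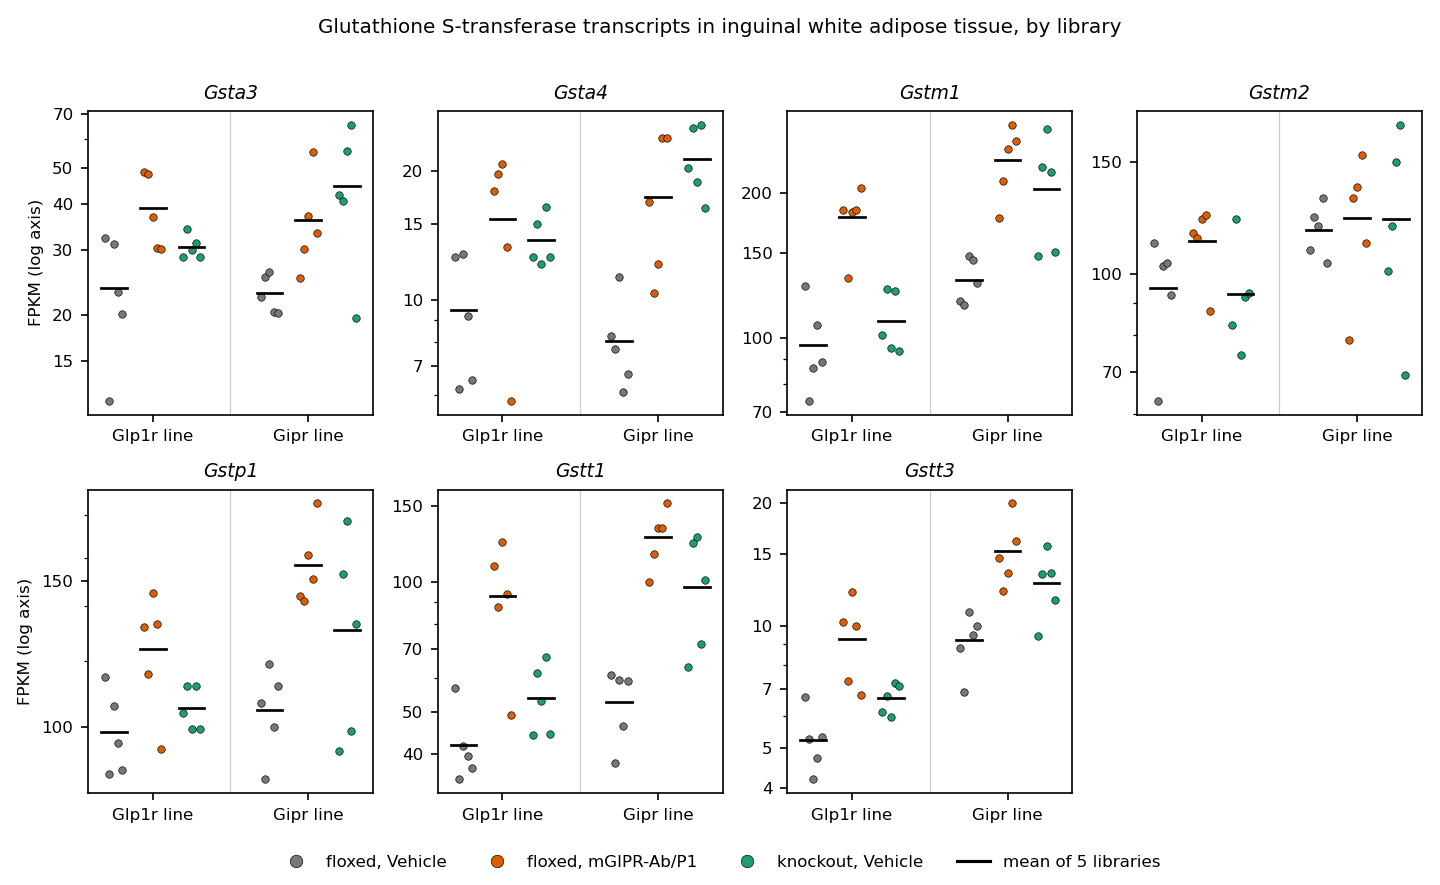
FPKM of the 7 members measured in inguinal fat in each of the 30 fat libraries (log axis), arranged and coloured as for liver, with bars at the mean of 5. Gstt1 runs from 38.1 to 60.9 FPKM in vehicle fat of the Gipr line and from 100 to 152 with the conjugate, while the Gstm2 points of all 3 groups overlap.

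In the Glp1r line fat 3 of 7 members were higher with the conjugate (Gstm1, Gstt1, Gstt3), where 3.39% of 12686 genes were called, 2.31% higher and 1.08% lower. With median-of-ratios scaling all calls split 126 higher and 114 lower, in place of 293 and 137, and 3 members were called. Without the 3 libraries of this table rich in B cell transcripts 2610 genes were called, in place of 430, and again 3 members. With estimated depth in the model, 1 member and 72 genes in all were called, and Gstt1 (1.02, adjusted p = 0.0658) and Gstt3 (0.65, adjusted p = 0.0725) missed the threshold. Gstm1 was at 128, 73.8, 86.5, 106 and 89.0 FPKM in vehicle, at 185, 133, 183, 185 and 205 FPKM with the conjugate and at 101, 126, 95.3, 125 and 93.8 FPKM in knockouts. Conjugate libraries were all above both other groups, which overlapped. Gstm1 rose by 0.88 ± 0.15 (adjusted p = 0.00988), a call that held in all 25 alternative analyses.

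Gstt1 stood at 56.8, 34.9, 41.6, 39.5 and 37.1 FPKM in vehicle, at 109, 87.3, 124, 93.7 and 49.2 FPKM with the conjugate and at 44.3, 61.5, 52.9, 66.9 and 44.4 FPKM in knockouts of the Glp1r line. The fifth conjugate library lay within the vehicle range and the other 4 above it (1.08 ± 0.21, adjusted p = 0.0202). This library also had lipid-associated macrophage markers at 1269 summed FPKM, beside 96.5 to 167 in the other conjugate and at most 222 in vehicle libraries, and fibroblast markers at 1429. Without it 5 members were called, Gsta4 (0.89, adjusted p = 0.0234) and Gstp1 (0.42, adjusted p = 0.0216) among them. Over all genes, fits that left out 1 library called 76 to 1087, in place of 430. Gstt3 was at 6.68, 5.27, 4.19, 4.72 and 5.32 FPKM in vehicle and at 10.2, 7.31, 12.1, 9.99 and 6.75 FPKM with the conjugate. The ranges came within 0.1 FPKM of each other without overlap (0.70 ± 0.14, adjusted p = 0.0204). Gsta3 (0.74 ± 0.22, adjusted p = 0.0854), Gsta4 (0.60, adjusted p = 0.285), Gstp1 (0.32, adjusted p = 0.125) and Gstm2 (0.26, adjusted p = 0.444) did not pass. No gene was called in the Glp1r line knockout fat (0% of 12686 by limma, with 593 at an unadjusted p under 0.05 and a smallest adjusted p of 0.931). The line comparison of the conjugate effect in fat had no call either (0% of 13749, with 545 at an unadjusted p under 0.05).

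Some members were called lower in liver and some higher in fat, but mostly not the same ones. Called both ways were only Gstm1 with the conjugate in the Glp1r line, and Gsta4 and Gstm1 in the Gipr line knockouts. The difference between tissues was tested by a fit over the 30 libraries of a line, a comparison added after the data had been seen. Chosen from these calls, the fit is no independent support for them. It treats the libraries as separate samples, which the labels do not settle. The 7 members measured in both tissues are counted. With the conjugate, 5 of 7 had a higher effect in fat than in liver in the Glp1r line (5.12% of 13710 genes called, 3.73% higher and 1.39% lower), and 5 of 7 in the Gipr line (7.56% of 14569, 5.61% higher and 1.95% lower). In the Gipr line knockouts 6 were higher and 1 lower (13.2%, 10.2% and 2.99%), and in the Glp1r line knockouts no gene was called (0% of 13710 by limma, with 730 at an unadjusted p under 0.05). Gstm1 differed by 1.65 (adjusted p = 0.000945) and 1.33 (adjusted p = 0.00195) with the conjugate in the Glp1r and Gipr lines, and by 1.54 (adjusted p = 0.000182) in the Gipr line knockouts. Gstm2 differed by 1.66 (adjusted p = 0.000945), 1.41 (adjusted p = 0.012) and 1.82 (adjusted p = 0.000817), through a fall in liver beside differences in fat from -0.01 to 0.26. Gstt1 differed by 1.19 (adjusted p = 0.00543), 1.64 (adjusted p = 0.00024) and 1.33 (adjusted p = 0.000913), although its liver values alone were not called in the reported fits. Among the alternatives, Gstt1 was called lower in Gipr line knockout livers with the replicate block (-0.49, limma adjusted p = 0.0307). The same held with libraries rescaled to the same sum (-0.59, limma adjusted p = 0.0228). Gstp1 was the one member with the opposite sign, at -1.25 (adjusted p = 0.00162) in the Gipr line knockouts.

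Other members of the superfamily were read from a list of 18 genes outside the 10, chosen like the lists below with earlier results known. In the Gipr line knockout livers 4 of 12 tested were lower and 1 higher, beside 8.92% and 1.44% of all genes tested. The list median was -0.309, beside -0.108 over all genes. Mgst3, a membrane-bound glutathione transferase and peroxidase, was at 18.6, 20.2, 35.6, 25.9 and 19.8 FPKM in vehicle and at 5.41, 4.31, 6.02, 6.61 and 9.49 FPKM in knockout livers. The groups were far apart (-1.76 ± 0.22, adjusted p = 0.000189). Gstp2, the copy next to Gstp1 with which it shares reads, rose by 1.23 ± 0.25 (adjusted p = 0.00669), and the mu genes Gstm4 (-0.89, adjusted p = 0.000493) and Gstm5 (-0.70, adjusted p = 0.0019) fell. Gstm4 was also lower with the conjugate in the Gipr line (-0.61, adjusted p = 0.0176) and the Glp1r line (-0.64, adjusted p = 0.0234). In these 2 comparisons 2 and 1 of 12 tested genes were called, all lower, beside 3.17% and 4.69% of all genes lower. The list medians were -0.176 and -0.132. In Gipr line fat 3 of 15 were higher and 1 lower with the conjugate, beside 4.26% and 2.76% of all genes. In the knockouts 4 of the list were higher and 2 lower, beside 6.61% and 5.67% of all genes. Gstm6 rose most (0.92, adjusted p = 0.0285, and 0.75, adjusted p = 0.0448), and Mgst2, an enzyme of leukotriene synthesis, fell with the conjugate (-0.88, adjusted p = 0.0056).

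Of 15 Nrf2 pathway genes without the transferases, 4 of 12 tested fell in the Gipr line knockout livers, 3 of 12 with the conjugate in that line and 3 of 13 in the Glp1r line. None rose in these 3 comparisons. Of all genes tested, 8.92%, 3.17% and 4.69% were called lower there. The list medians were -0.347, -0.225 and -0.164, beside -0.108, -0.0296 and 0.0126 over all genes. In fat 1 of 12 rose and 1 fell in the Gipr line knockouts, close to the shares of all genes (6.61% higher and 5.67% lower). Srxn1, which repairs over-oxidised peroxiredoxins, was at 18.2, 17.3, 31.2, 22.3 and 20 FPKM in vehicle, at 11.8, 9.33, 16.2, 6.58 and 13.4 FPKM in conjugate and at 8.3, 7.81, 9.86, 10.2 and 17.4 FPKM in knockout livers of the Gipr line. Its log2 difference was -0.89 (adjusted p = 0.0462) and -0.98 (adjusted p = 0.0151), and -0.91 ± 0.15 (adjusted p = 0.00454) with the conjugate in the Glp1r line. The quinone reductase Nqo1 fell by 0.86 (adjusted p = 0.0465), 1.31 (adjusted p = 0.0019) and 0.81 (adjusted p = 0.0131) in the same order. Nfe2l2, the gene of Nrf2 itself, was lower in the Gipr line livers with the conjugate (-0.37, adjusted p = 0.0485) and in the knockouts (-0.61, adjusted p = 0.00132).

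Of 15 genes of glutathione synthesis, recycling and breakdown, 10 were tested in liver, and 3 were lower in the Gipr line knockouts: Gss, the second enzyme of synthesis (-0.49, adjusted p = 0.0323), and the breakdown enzymes Ggct (-0.36, adjusted p = 0.0258) and Anpep (-0.32, adjusted p = 0.0224). Of all genes tested, 8.92% were lower in these knockouts. The list median was -0.273 there, and -0.111 and 0.106 with the conjugate in the Gipr and Glp1r lines. Ggct was the only one called with the conjugate, in the Gipr line (-0.41, adjusted p = 0.0305) and the Glp1r line (-0.42, adjusted p = 0.00251), at levels of 0.65 to 2.1 FPKM in these livers. That is 1 of 10 in each line, beside 3.17% and 4.69% of all genes lower. Of 7 genes of conjugate efflux, 5 were tested in liver, and the basolateral pump Abcc3 was lower in the Gipr line with the conjugate (-0.57, adjusted p = 0.0139) and in the knockouts (-0.64, adjusted p = 0.00225). That is 1 of 5 in each comparison, beside 3.17% and 8.92% of all genes lower. The list medians were 0.0284 and -0.0841.

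Other phase II enzymes, 17 tested, had 5 lower and 1 higher in the Gipr line knockout livers, beside 8.92% and 1.44% of all genes. The list median was -0.03. The glucuronosyltransferase Ugt1a9 fell by 1.97 (adjusted p = 0.000155) and the epoxide hydrolase Ephx1 by 0.83 (adjusted p = 0.000343), while the glucuronosyltransferase Ugt2b1 rose by 0.68 (adjusted p = 0.0184). With the conjugate in that line Ugt1a9 fell by 1.535 (limma adjusted p = 0.00352) and Ephx1 by 0.82 (adjusted p = 0.00213), the 2 genes called there. In the Glp1r line Ephx1 fell by 0.57 (adjusted p = 0.0409), as 1 of 2 genes lower. A second epoxide hydrolase, Ephx2, was the 1 gene higher there (0.25, adjusted p = 0.0289). Of all genes 3.17% were lower in the Gipr line, and 4.69% lower and 5.68% higher in the Glp1r line. Among xenobiotic receptors and their cytochrome P450 targets, 3 of 12 were called in the Gipr line knockout livers, in both directions, beside 10.4% of all genes. The list median was -0.211. With the conjugate 1 of 12 was called in the Gipr line and 1 of 13 in the Glp1r line, beside 4.34% and 10.4% of all genes. Cyp1a2, which oxidises caffeine, was at 145, 115, 69.0, 81.6 and 143 FPKM in vehicle and at 467, 338, 291, 402 and 469 FPKM in knockout livers (1.86, adjusted p = 0.000131). Cyp2b9 was at 129, 168, 166, 186 and 84.6 FPKM in vehicle and at 11.5, 8.57, 26.1, 40.4 and 31.3 FPKM in knockouts, and Cyp3a11 was also lower (-0.94, adjusted p = 0.0192). Both groups were separate for Cyp1a2 and Cyp2b9, in opposite directions.

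Across the 30 liver libraries, centred on the mean of their table, the members formed patterns that other genes shared. Among 6091 genes averaging at least 5 FPKM, the 5 most like Gstm3 by Pearson's r of log2(FPKM + 1) were Anxa2 (0.958), Arsb (0.937), Lgals1 (0.923), Tubb2a (0.922) and Anxa5 (0.918). Closest to Gsta1 were Srxn1 (0.963), Ugdh (0.94), Gusb (0.927), Slc48a1 (0.924) and Anxa2 (0.919). For Gstp1 they were Cyp7b1 (0.892), C6 (0.872), Selenbp2 (0.866), Serpina1e (0.855) and Lifr (0.841). All points share libraries and groups, so part of each r is the difference between groups. After group means were taken out, r was 0.87 for Anxa2 with Gstm3 and 0.9 for Srxn1 with Gsta1, but 0.498 for Cyp7b1 with Gstp1 and 0.248 for Lifr.

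Among the members themselves Gstm2 and Gstm3 were at r = 0.914 (0.674 after group means), Gsta1 and Gstm3 at 0.891 (0.66) and Gsta1 and Gsta2, which share reads, at 0.877 (0.703). Gstp1 ran against Gstm2, with r = -0.802 and -0.498 after group means. These are descriptions over 30 libraries from 6 groups.

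**Figure D5:**
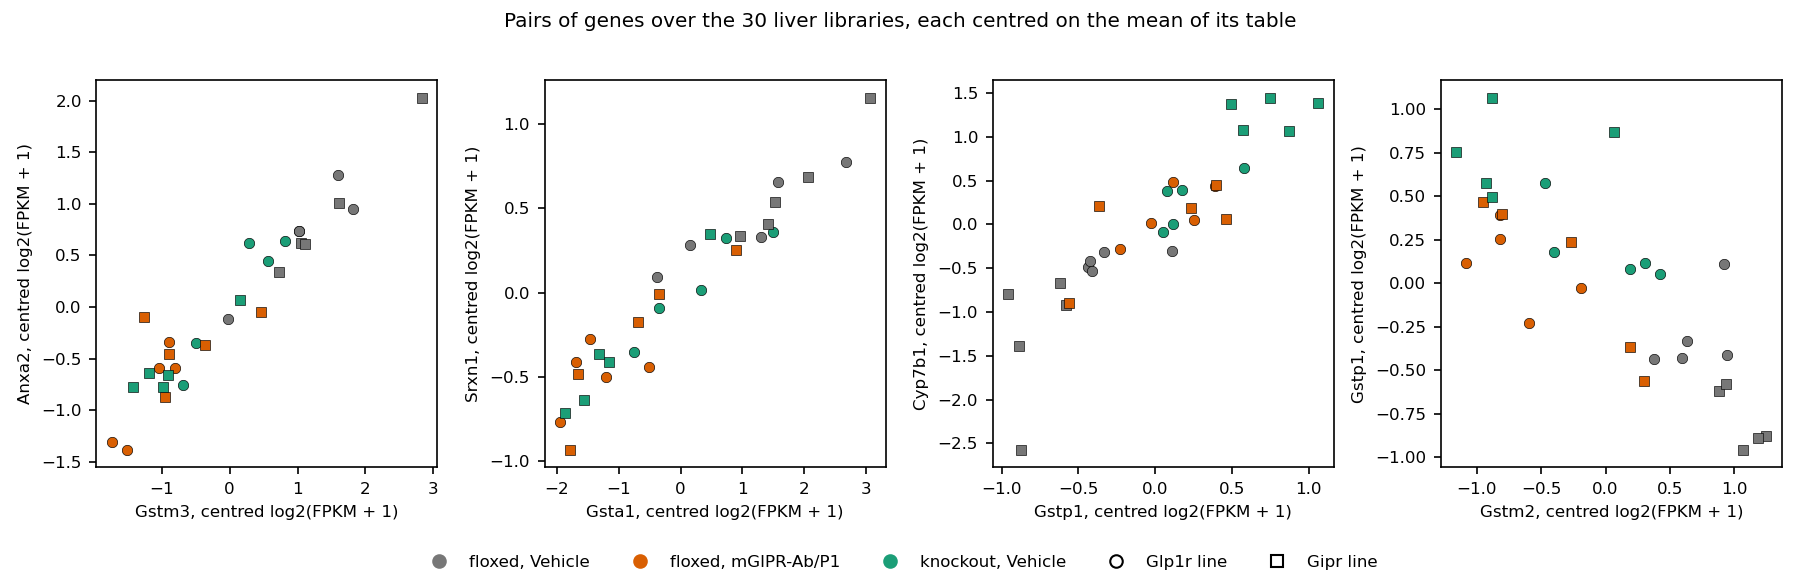
Centred log2(FPKM + 1) of 4 pairs of genes over 30 liver libraries (Anxa2 and Gstm3, Srxn1 and Gsta1, Cyp7b1 and Gstp1, Gstp1 and Gstm2), with circles for the Glp1r line, squares for the Gipr line and colours for the 3 groups. The first 3 pairs rise together (r = 0.958, 0.963 and 0.892) and the last runs down (r = -0.802), with the groups spread along each trend.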

How the data were processed

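Stranded poly(A) RNA-seq of liver and inguinal fat was read from 4 tables of 15 libraries. The FPKM values were computed with RSEM and deposited by the authors, per the submitters' processing notes. Neither a version of RSEM nor an aligner, build or annotation is named, each being not given in the sources used here. Values were analysed as log2(FPKM + 1) from the deposited FPKM. Groups were taken from the labels' titles.

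Genes with at least 1 FPKM in at least 5 of 15 libraries were tested with limma 3.58.1 (lmFit, eBayes with trend) in R 4.3.3. The 3 groups of a table shared 1 spread, p-values were two-sided, and Benjamini-Hochberg adjustment ran over all genes tested. Tables, counts and figures were made with Python 3.11.15, numpy 2.4.6, pandas 2.3.3 and matplotlib 3.10.9. The limma fit was tested on simulated data. The members and lists were chosen with earlier results of these data known, and the lists are described by counts and medians. Named genes are the 10 members, up to 4 called genes per list with the largest change, and the 5 genes most like Gstm3, Gsta1 and Gstp1 (symbols starting with Gm or ending in Rik left out). Depth was estimated from the smallest step of FPKM over 6982 single-transcript genes, 1500 to 6000 bases long. It sets the precision of low members such as Gsta1, and no counting interval was computed. Not every same-numbered pair had r over 0.1, so the numbers were not taken to pair libraries. Alternatives were the pseudocount, the filter, scaling, a replicate block, only 2 groups in a fit, each library or the higher library numbers left out, and B cell or pancreas markers as a term. Chosen after the data had been seen were bile duct markers as a term, leaving out libraries rich in B cell transcripts, and depth as a term (planned only for the conjugate comparison in the Glp1r line livers). No 2 libraries held identical values.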

Additional observations from a re-analysis of the deposited data

Results flagged for a closer look

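Of 102 groups of 5 libraries examined over the members, 9 had 1 library far from the other 4. Chance gives about 1 in 20 for independent, normally distributed values. FPKM values need not be normal and members are correlated, so the count is not read as an excess. In the Gipr line knockout livers the far library was the fifth for 5 genes, toward the vehicle level. It held 4.84 FPKM of Gsta1 (next 0.884), 21.1 of Gsta2 (next 9.88), 772 of Gstm1 (next 425), 45.9 of Gstm2 (next 23.4) and 19.3 of Gstm3 (next 8.81). Gstm3 reached 129 FPKM in the third vehicle liver of the Gipr line (next 55.2). In Glp1r line livers Gstp1 reached 747 FPKM in 1 vehicle library (next 550) and 1035 FPKM in 1 knockout library (next 784). The lowest Gstm2 value in conjugate fat of the Glp1r line was 87.2 FPKM (next 114).

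The effect in fat minus that in liver differed from 0 for 17 values of the members, by limma over 30 libraries. Counted are the 7 members measured in both tissues, in a comparison added after the data had been seen. Of all genes, 5.12% and 7.56% were called with the conjugate in the Glp1r and Gipr lines. In the knockouts of the Glp1r and Gipr lines it was 0% and 13.2%. With the conjugate in the Glp1r line the differences were 0.92 for Gsta3, 1.65 for Gstm1, 1.66 for Gstm2, 1.19 for Gstt1 and 0.96 for Gstt3. In the Gipr line they were 1.33 for Gsta4, 1.33 for Gstm1, 1.41 for Gstm2, 1.64 for Gstt1 and 1.36 for Gstt3. The Gipr line knockouts had 1.28 for Gsta3, 1.8 for Gsta4, 1.54 for Gstm1, 1.82 for Gstm2, -1.25 for Gstp1, 1.33 for Gstt1 and 1.17 for Gstt3. Of these 17, 11 kept the call in all 36 alternatives, and Gstt3 in the Gipr line knockouts lost it in 11.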

How the results depend on the processing

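No member changed sign while called. Of the members' values under alternatives 2672 stayed on their side, 146 lost and 24 gained a call, and 32 values of uncalled members moved. Uncalled values changed sign: with depth as a term Gstt3 in Glp1r line livers with the conjugate went from -0.26 to 0.82. Counts of called members are given as reported, then as changed, each with the count over all genes in brackets; the cause was not tested unless fewer samples or genes were used. Liver, Glp1r line, conjugate against vehicle: 5 [1126], with 3 [617] without a filter, 0 [0] with depth as a term, and 3 to 6 [479 to 1395] leaving out 1 library (moved by vehicle 4 and conjugate 1). Conjugate against knockout there: 2 [547], with 0 [218] without a filter, 1 [789] rescaled to the same sum, 0 [66] with only 2 groups, 0 [0] with depth as a term, and 0 to 2 [134 to 799] leaving out 1 library (moved by all but vehicle 1 and conjugate 2). Liver, Gipr line, conjugate against vehicle: 5 [486], with 2 [250] without a filter, 3 [149] with only 2 groups, 3 [490] without the 3 livers of the higher library numbers, and 2 to 6 [159 to 1039] leaving out 1 library (moved by vehicle 3, 4 and 5 and conjugate 2 and 4). Conjugate against knockout there: 0 [147], with 1 [154] with the pancreas term and 0 to 1 [53 to 554] leaving out 1 library (knockout 5). The Gipr line knockout livers had 7 [1160], and 6 to 9 [694 to 1622] leaving out 1 library. Fat, Glp1r line, conjugate: 3 [430], with 1 [58] with only 2 groups, 1 [72] with depth as a term, and 1 to 5 [76 to 1087] leaving out 1 library (vehicle 3, 4, 5, conjugate 1, 3, 4, 5). Fat, Gipr line, conjugate: 5 [955], with 3 [765] by median-of-ratios and 3 to 5 [418 to 1223] leaving out 1 library (vehicle 4, conjugate 5). Fat, Gipr line, knockouts: 4 [1670], with 2 [1345] without a filter, 2 [1602] by median-of-ratios, 2 [1443] with only 2 groups, and 2 to 4 [693 to 2117] leaving out 1 library (each vehicle, knockout 2, 3, 4). With the replicate block the counts were 5 [1342], 3 [705], 4 [378], 8 [1254], 2 [83], 5 [1335] and 4 [2253] in liver Glp1r conjugate, conjugate against knockout, liver Gipr conjugate and knockouts, fat Glp1r conjugate, and fat Gipr conjugate and knockouts. As a hint from the data that the numbers may mean more in Gipr line fat, same-numbered pairs there had r over 0.1 in 11 of 15 (median 0.287, against -0.0514 for other pairs), and in 6, 6 and 5 of 15 in Glp1r line fat, Gipr line liver and Glp1r line liver. Glp1r line knockouts and line comparisons had 0 members in every alternative. Over all genes, the knockout livers of that line had 0 to 81 leaving out 1 library and 2 by median-of-ratios. The line comparison in fat had 0 to 1 leaving out 1 library and 1 without a filter. Counts over all genes moved by more than 1.5 times beside these. They were 306 rescaled to the same sum and 266 with depth as a term in Gipr line livers with the conjugate, and 1967 and 737 by the same sum and median-of-ratios in the knockouts there. Conjugate against knockout there had 93 without a filter, 463 by the same sum, 88 by median-of-ratios, 74 with only 2 groups, 89 without the higher library numbers and 92 with depth as a term. In fat they were 146 without a filter, 240 by median-of-ratios and 2686 with B cell markers as a term (Glp1r line, conjugate). In Gipr line fat they were 569 with the conjugate and 985 in the knockouts without the higher library numbers, and 1062 in the knockouts with at least 5 FPKM in 5 libraries.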
